A study of Mus musculus with 8 samples.

Results

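The Polycomb repressor subunits described here are 10 genes, chosen by name as rows of the deposited count table: *Ezh2*, *Ezh1*, *Eed*, *Suz12*, *Jarid2*, *Mtf2*, *Phf19*, *Rnf2*, *Ring1* and *Bmi1*. All 10 were found among the 54532 genes deposited, and all 10 passed the filter on low counts, which kept 17998 genes. Their transcripts were measured by bulk RNA-seq of mouse retina in 4 *Mettl3*-CKO libraries (labelled as *Mettl3* knockout, and in the study Six3-Cre+; Mettl3 floxed/floxed) and 4 control libraries, whose own alleles are not given in the sources used here. The age was postnatal day 7 by the labels and day 6 by the methods of the study. METTL3 is the catalytic subunit of the enzyme that places N6-methyladenosine (m6A) on messenger RNA. Six3-Cre acts in retinal progenitor cells, and the study describes the deletion for the central retina. Its methods for bulk RNA-seq say that retinas were collected and name no region. Endothelial cells, microglia and other cells that do not come from these progenitors are not targeted.

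Polycomb proteins keep developmental genes silent through 2 complexes. Polycomb repressive complex 2 (PRC2) methylates lysine 27 of histone H3 by the catalytic subunit EZH2 or its paralog EZH1, held together by EED and SUZ12, and accessory proteins such as JARID2, MTF2 and PHF19 bring it to chromatin. Polycomb repressive complex 1 (PRC1) ubiquitinates histone H2A by the RING-type ligases RNF2 (RING1B) or RING1, each joined to a PCGF protein such as BMI1. In many tissues EZH2 is abundant in dividing progenitors and EZH1 persists in differentiated cells, and in the retina PRC2 is known to act in progenitors and in the timing of differentiation.

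Total counts ranged from 16227095 to 20281517 per library. Values are in CPM (the count of a gene relative to the library total, after TMM scaling) unless stated otherwise, and 3 counts correspond to at most 0.185 CPM. *Mettl3* itself was at 33.8, 32.5, 29.4 and 29.3 CPM in control replicates 1 to 4 and at 21.1, 29.6, 21.3 and 24.3 CPM in *Mettl3*-CKO replicates 1 to 4. The groups overlapped, with *Mettl3*-CKO replicate 2 above control replicates 3 and 4, and the log2 fold change of -0.375 (standard error, SE, 0.12) had an adjusted p of 0.0602 by edgeR. The deposited counts cover the whole gene, and 18.4% of its exon bases overlap *Tox4*. Among the libraries, control replicate 4 stood apart in lens genes, with the lens crystallin gene *Cryaa* at 1170 CPM against at most 23 CPM in any other library. Control replicate 1 was the control least like the others, with a chi-square per gene of 26.6 to 44.1 against them, where the other control pairs had 5.54 to 14.4. Nothing in the labels says that the libraries came from separate animals, so that p-values measure the spread between these libraries.

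The Polycomb subunits spanned a wide range of levels in control retinas. Their order is given per deposited gene length, which is 1 value per gene. It need not be the length of the transcripts in use, which were not measured, and another length could change the order. Compared per length (FPKM, here CPM divided by the deposited gene length in kilobases), *Bmi1* had the highest level at 39.3 ± 5.3 FPKM (SD, n = 4). It was followed by *Suz12* at 32.6 ± 1.5 FPKM, *Rnf2* at 22.7 ± 4.0 FPKM, *Jarid2* at 18.6 ± 1.2 FPKM and *Ezh2* at 16.5 ± 1.8 FPKM. *Mtf2* at 15.9 ± 0.85 FPKM and *Ring1* at 15.9 ± 2.0 FPKM came next, and then *Eed* at 12.9 ± 0.63 FPKM, *Ezh1* at 8.57 ± 0.15 FPKM and *Phf19* at 0.971 ± 0.27 FPKM. Each neighbouring pair from *Rnf2* to *Eed* in this order had overlapping control values. Genes further apart could be separate, as were *Rnf2* (19.8 to 28.7 FPKM) and *Eed* (12.2 to 13.6 FPKM). Within each control library *Rnf2* was above *Jarid2*, and *Jarid2* above *Ezh2*. *Ezh1* lay below every library's *Eed* and *Phf19* below every library's *Ezh1*. In *Mettl3*-CKO retinas the order of the means kept *Bmi1*, *Suz12* and *Rnf2* as the first 3 and *Eed*, *Ezh1* and *Phf19* as the last 3, and *Jarid2* at 14.7 ± 1.2 FPKM came 7th in place of 4th. There the values of *Jarid2* overlapped those of *Ezh2*, *Mtf2* and *Ring1*.

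To ask whether loss of *Mettl3* altered the transcripts of this machinery, the *Mettl3*-CKO libraries were set against the controls. Of the 10 subunits 1, *Jarid2*, was called lower at an adjusted p-value under 0.05 (edgeR quasi-likelihood F test, Benjamini-Hochberg adjustment over all tested genes) and none was called higher, where 4.05% of all tested genes were called lower, 6.49% higher and 10.5% in either direction. At an unadjusted p under 0.05, 2 of the 10 passed, *Jarid2* and *Ezh1*, against 24.6% of all tested genes. DESeq2 called 2, *Jarid2* and *Ezh1*, both lower. In 3 of the 10, *Jarid2*, *Ezh1* and *Eed*, every *Mettl3*-CKO value lay below every control value, against 7.58% of tested genes with this pattern, and in 0 of the 10 did every *Mettl3*-CKO value lie above, against 9.77%. The median log2 fold change of the 10 subunits was -0.05, beside -0.01 over all tested genes, and the individual values ran from -0.34 to 0.18. In bulk RNA, fewer cells of a type and less RNA per cell cannot be told apart.

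**Figure D1:**
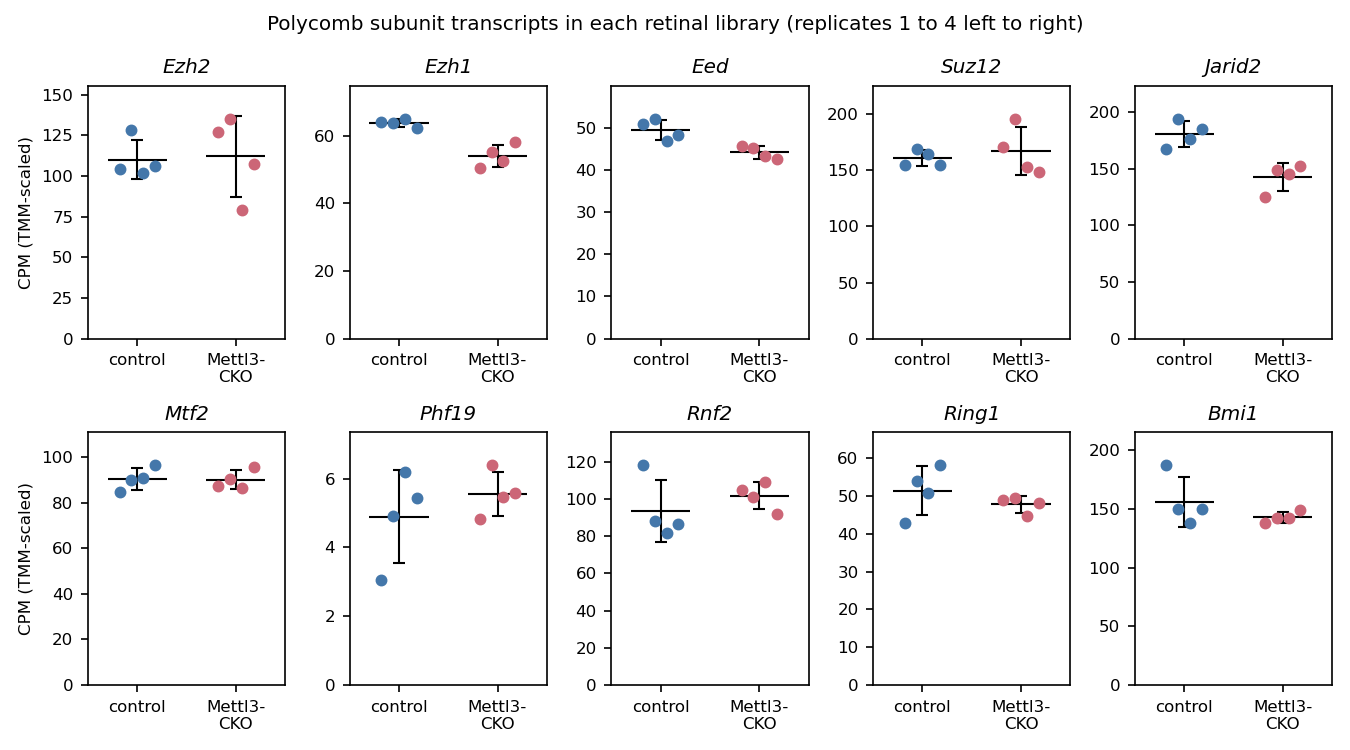
Level of each Polycomb subunit transcript in CPM (TMM-scaled, linear axis from 0) in the 4 control and 4 *Mettl3*-CKO libraries. Points are libraries, replicates 1 to 4 from left to right, and the bar and whiskers are the mean and SD. *Jarid2*, *Ezh1* and *Eed* have no overlap between groups, *Ezh2* is spread widest among the *Mettl3*-CKO libraries, from 79.3 to 135 CPM, and control replicate 1 is the highest control for *Rnf2* and *Bmi1*.

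**Figure D2:**
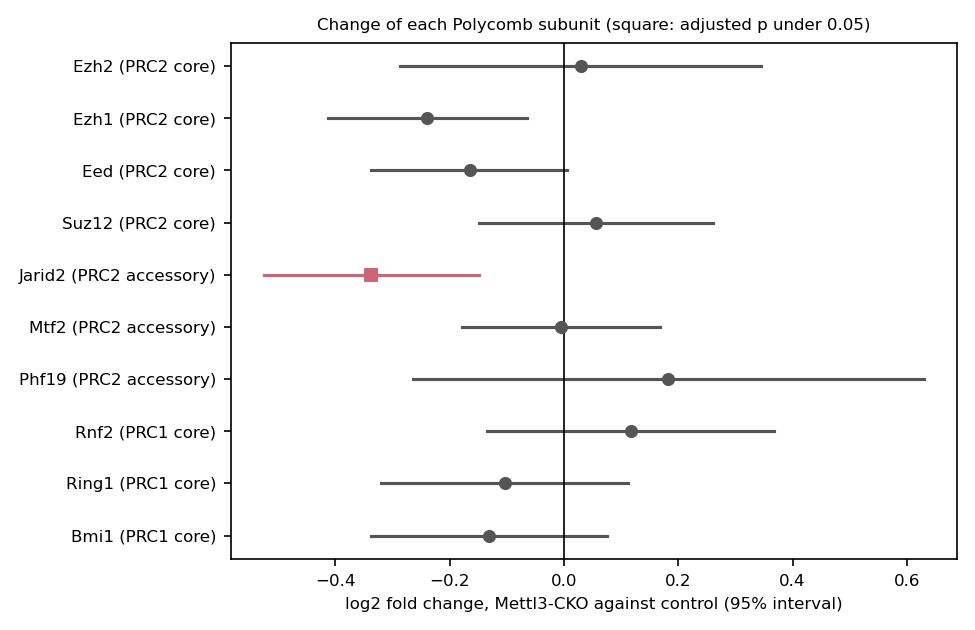
Log2 fold change of each subunit in *Mettl3*-CKO against control retinas from edgeR's quasi-likelihood fit, with its 95% interval. The square is *Jarid2*, the only subunit past the adjusted threshold, at -0.34. The interval of *Ezh1* also lies below 0 before adjustment, and the other 8 intervals include 0.

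*Ezh2*, the main H3K27 methyltransferase of dividing cells, was at 104, 128, 102 and 106 CPM in control replicates 1 to 4 and at 127, 135, 79.3 and 107 CPM in *Mettl3*-CKO replicates 1 to 4. The groups overlapped throughout: *Mettl3*-CKO replicate 3 was the lowest library of all, and replicate 2 of the same group the highest. The means were 110 ± 12.2 and 112 ± 24.9 CPM (SD, n = 4 each), and the log2 fold change was 0.03 with a 95% interval from -0.29 to 0.34 (adjusted p = 0.933, edgeR). Its spread among the *Mettl3*-CKO libraries, a coefficient of variation of 22.2%, was the largest of the 10 subunits in that group.

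*Ezh1*, the paralog associated with differentiated cells, was at 64.1, 63.7, 64.9 and 62.2 CPM in the controls and at 50.4, 55.1, 52.5 and 58.0 CPM in the *Mettl3*-CKO libraries. The control values were nearly equal, with a coefficient of variation of 1.74%, and each of them lay above each *Mettl3*-CKO value. The means were 63.7 ± 1.11 and 54.0 ± 3.32 CPM (SD, n = 4 each), a log2 difference of -0.24 (SE 0.08, 95% interval from -0.41 to -0.06, adjusted p = 0.0788, edgeR), so that it missed the threshold after adjustment over all genes. DESeq2 gave an adjusted p of 0.0422 and limma voom with sample quality weights 0.0263, and over all the settings tried, leave-outs included, the adjusted p ran from 0.0263 to 0.259.

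The balance between alternative subunits was compared within each library as a log2 ratio of FPKM. The level of such a ratio depends on the deposited gene lengths, and its difference between groups does not. The *Ezh2* to *Ezh1* ratio was 1.81, 2.24, 1.74 and 1.90 on the linear scale in control replicates 1 to 4 and 2.81, 2.74, 1.68 and 2.06 in *Mettl3*-CKO replicates 1 to 4. *Mettl3*-CKO replicates 1 and 2 were above all controls, and replicate 3 was below them all. The mean log2 ratio was 0.94 ± 0.16 in controls and 1.18 ± 0.35 in *Mettl3*-CKO retinas (SD, n = 4 each), a difference of 0.25 that did not exceed the spread between libraries (two-sided exact permutation test, p = 0.257, and 0.371 when adjusted across the 3 ratios, where 0.0286 is the smallest p that 4 libraries against 4 allow).

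*Ezh2* is a known target of the E2F factors, which drive genes of DNA replication and mitosis, and is usually read beside proliferation genes. Of a list of 20 cell cycle genes, 7 were called higher in *Mettl3*-CKO retinas and none lower, with a median log2 fold change of 0.35, and their summed level ran from 2190 to 2690 CPM in controls and from 2790 to 3630 CPM in *Mettl3*-CKO libraries. *Mki67*, a marker of cycling cells, was at 405, 509, 438 and 484 CPM in controls and at 1090, 927, 873 and 728 CPM in *Mettl3*-CKO libraries (log2 fold change 0.98, SE 0.12, adjusted p = 0.000701, edgeR). *Ezh2* minus the mean of the 20 genes, on the log2 CPM scale, was 0.51, 0.47, 0.23 and 0.33 in control replicates 1 to 4 and 0.15, 0.18, -0.46 and 0.22 in *Mettl3*-CKO replicates 1 to 4. Every *Mettl3*-CKO value was below every control value, the closest libraries being control replicate 3 and *Mettl3*-CKO replicate 4. The mean of the 20 genes was itself at 6.39 in controls and 6.76 in *Mettl3*-CKO libraries. A gene that did not change would thus also tend to be lower against it. The groups overlapped slightly in that mean, at 6.54 in control replicate 2 and 6.53 in *Mettl3*-CKO replicate 4. The share of all genes that separate the groups in this way was not counted, so whether the pattern is particular to *Ezh2* is not known. The difference between *Ezh2* and the 20 genes was computed after the values had been seen and was not tested. The same libraries also differed in other markers. Of 8 progenitor genes, 3 were called higher, with a summed level of 1320 to 1880 CPM in controls and 1880 to 2650 CPM in *Mettl3*-CKO libraries. In this sum the highest control and the lowest *Mettl3*-CKO library were nearly equal. Of 8 rod genes, 5 were called lower (2500 to 3710 CPM against 1280 to 2360 CPM). No gene of these 3 lists was at 0 throughout. Their part in the values of the Polycomb subunits was not tested.

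**Figure D3:**
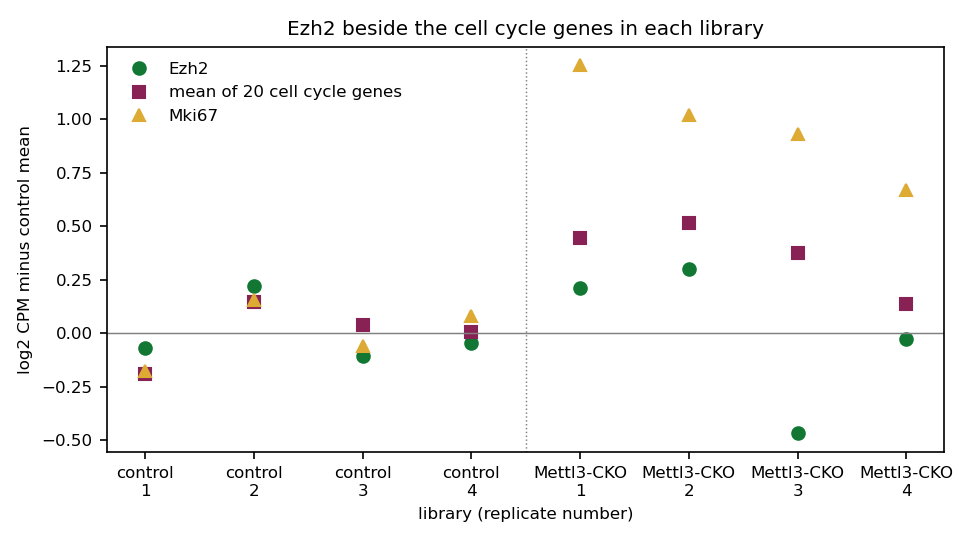
*Ezh2*, *Mki67* and the mean of 20 cell cycle genes in each library, as log2 CPM minus the control mean of the same measure. In each of the 4 *Mettl3*-CKO libraries *Mki67* and the cell cycle mean lie above 0 and *Ezh2* lies below both, furthest in replicate 3.

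The RefSeq promoters of the subunits (GRCm38.p6, from 250 bases before to 50 after the annotated start) were read for the E2F consensus, searched as TTTCCCGC, TTTCGCGC, TTTGCCGC and TTTGGCGC on both strands. All 10 subunits matched by symbol, with 12 promoters, and 3 of the 12 held a match, in *Ezh2*, *Suz12* and *Phf19*. Among all 32851 promoters of the same length 2.26% held one, and of the 17 promoters found for 16 of the cell cycle genes 5 did. The GC content of the 12 promoters ran from 45.7% to 74.3%. These shares were not matched for base composition, and the difference between them was not tested. The promoters of the catalytic pair *Ezh2* and *Ezh1*, of *Suz12* and *Phf19* and the first of 2 listed for *Jarid2*, the called subunit, are shown 5′ to 3′ along each gene, with a match in capitals. A match describes the letters only, and the absence of one says nothing about the factor.
Ezh2, chr6:47594981-47595280, minus strand: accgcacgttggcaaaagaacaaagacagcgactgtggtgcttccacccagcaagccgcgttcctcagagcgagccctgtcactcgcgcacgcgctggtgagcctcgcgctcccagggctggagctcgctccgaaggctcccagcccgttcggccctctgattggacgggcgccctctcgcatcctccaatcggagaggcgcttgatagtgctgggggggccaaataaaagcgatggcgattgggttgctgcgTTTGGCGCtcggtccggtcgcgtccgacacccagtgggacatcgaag
Ezh1, chr11:101226414-101226713, minus strand: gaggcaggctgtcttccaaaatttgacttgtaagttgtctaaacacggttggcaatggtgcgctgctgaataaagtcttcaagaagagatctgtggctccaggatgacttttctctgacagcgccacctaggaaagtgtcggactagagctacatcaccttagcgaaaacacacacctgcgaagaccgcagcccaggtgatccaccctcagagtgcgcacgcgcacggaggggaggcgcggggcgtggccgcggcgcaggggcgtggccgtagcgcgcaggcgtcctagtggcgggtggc
Suz12, chr11:79992856-79993155, plus strand: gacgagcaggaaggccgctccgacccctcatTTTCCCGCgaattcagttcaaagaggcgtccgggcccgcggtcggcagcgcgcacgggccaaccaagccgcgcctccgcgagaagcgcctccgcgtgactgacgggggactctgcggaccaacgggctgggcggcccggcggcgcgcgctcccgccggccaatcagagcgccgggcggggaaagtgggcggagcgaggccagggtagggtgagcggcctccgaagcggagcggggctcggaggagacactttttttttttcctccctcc
Phf19, chr2:34913927-34914226, minus strand: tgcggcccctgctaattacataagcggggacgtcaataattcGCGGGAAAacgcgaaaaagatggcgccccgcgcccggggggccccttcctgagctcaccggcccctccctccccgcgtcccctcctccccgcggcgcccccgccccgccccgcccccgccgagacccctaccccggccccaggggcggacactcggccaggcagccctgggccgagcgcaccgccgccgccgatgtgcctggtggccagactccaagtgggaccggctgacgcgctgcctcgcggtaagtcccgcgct
Jarid2, chr13:44730524-44730823, plus strand: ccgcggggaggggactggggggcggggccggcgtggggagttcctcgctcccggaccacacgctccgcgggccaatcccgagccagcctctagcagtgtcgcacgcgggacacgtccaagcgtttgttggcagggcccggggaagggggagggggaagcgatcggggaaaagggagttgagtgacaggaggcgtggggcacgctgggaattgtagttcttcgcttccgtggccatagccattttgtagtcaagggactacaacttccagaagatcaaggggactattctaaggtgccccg
Counted from 0 at the annotated RefSeq start, the match began at position 3 in *Ezh2*, -219 in *Suz12* and -208 in *Phf19*. The windows shown for *Ezh2* and *Jarid2* lie inside the deposited genes, which begin further upstream, at 47595341 and 44729474. Bases before those deposited starts were not read. None of the 3 genes with a match passed the test in *Mettl3*-CKO retinas.

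*Eed*, the PRC2 subunit that binds the trimethylated product, was at 50.9, 52.1, 46.8 and 48.2 CPM in control replicates 1 to 4 and at 45.6, 45.2, 43.3 and 42.5 CPM in *Mettl3*-CKO replicates 1 to 4. Each *Mettl3*-CKO library was below each control. The log2 fold change was -0.165 (SE 0.08, 95% interval from -0.34 to 0.01, adjusted p = 0.221, edgeR), which did not pass. *Suz12*, which the complex needs for its assembly, was at 155, 169, 165 and 155 CPM in controls and at 171, 196, 153 and 149 CPM in *Mettl3*-CKO libraries. The *Mettl3*-CKO values fell on both sides of the controls, and the log2 fold change was 0.06 with an interval from -0.15 to 0.26 (adjusted p = 0.775, edgeR). Summed over the 4 core genes, PRC2 transcripts were at 371 to 413 CPM in controls and 328 to 432 CPM in *Mettl3*-CKO libraries.

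Of the PRC2 accessory genes, *Jarid2* fell. JARID2 is a DNA-binding protein of the Jumonji family without demethylase activity that recruits PRC2 and stimulates it. Its transcript was at 167, 194, 176 and 185 CPM in control replicates 1 to 4 and at 125, 149, 145 and 152 CPM in *Mettl3*-CKO replicates 1 to 4. Every *Mettl3*-CKO library was below every control, with *Mettl3*-CKO replicate 1 the lowest. The means were 180 ± 11.7 and 143 ± 12 CPM (SD, n = 4 each), a log2 difference of -0.34 (SE 0.09, 95% interval from -0.525 to -0.149, adjusted p = 0.0273, edgeR), which is 0.792-fold. The call was lost without *Mettl3*-CKO replicate 1 (-0.275, adjusted p = 0.11) or 3 (-0.34, adjusted p = 0.0665) and without control replicate 2 (-0.30, adjusted p = 0.0982), 3 (-0.345, adjusted p = 0.0572) or 4 (-0.33, adjusted p = 0.0659). It held in the other 3 leave-outs and in all 6 other settings, where the adjusted p was between 0.00333 and 0.034. *Jarid2* (GRCm38, chromosome 13, 44729474 to 44921643, plus strand) shares no exon bases with another gene of GENCODE vM21. Other subunits do, with a gene on the other strand: *Mtf2* (6.93% of its exon bases), *Eed* (6.82%), *Rnf2* (3.83%), *Suz12* (3.6%) and *Ezh2* (2.61%).

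*Mtf2*, a Tudor-domain protein that ties PRC2 to unmethylated CpG-rich DNA, was at 84.5, 89.9, 91.0 and 96.3 CPM in controls and at 87.5, 90.5, 86.5 and 95.8 CPM in *Mettl3*-CKO libraries. The groups covered the same range, and the log2 fold change was -0.01 with an interval from -0.18 to 0.17 (adjusted p = 0.977, edgeR). *Phf19*, its paralog, was the least abundant subunit, with 57, 80, 118 and 90 counts in controls and 87, 110, 103 and 114 counts in *Mettl3*-CKO libraries. Its interval was the widest of the 10, from -0.26 to 0.63 around a log2 fold change of 0.18 (adjusted p = 0.642, edgeR). The value rested on single libraries: it was 0.00981 without control replicate 1, the lowest library, and 0.32 without control replicate 3, the highest control.

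None of the PRC1 core genes passed the test in edgeR, DESeq2 or limma voom, and none had an unadjusted p under 0.05 in edgeR or DESeq2, where limma voom had 1, *Rnf2*. *Rnf2*, which encodes the main H2A ubiquitin ligase of PRC1, was at 118, 88.1, 81.6 and 86.4 CPM in control replicates 1 to 4 and at 105, 101, 109 and 91.9 CPM in *Mettl3*-CKO replicates 1 to 4. Control replicate 1 was the highest library of all, and the other 3 controls were below all 4 *Mettl3*-CKO libraries. The log2 fold change was 0.12 (SE 0.12, interval from -0.135 to 0.368, adjusted p = 0.593, edgeR). Without control replicate 1 it was 0.25 and called higher (adjusted p = 0.0464, edgeR), and with limma voom it was 0.23 (adjusted p = 0.0574).

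*Ring1*, the paralog of *Rnf2*, was at 42.9, 54.0, 50.7 and 58.1 CPM in controls and at 49.0, 49.5, 44.6 and 48.2 CPM in *Mettl3*-CKO libraries. Control replicate 1 was here the lowest library, and the log2 fold change was -0.10 with an interval from -0.32 to 0.11 (adjusted p = 0.581, edgeR). It was -0.18 without control replicate 1 (adjusted p = 0.153, edgeR) and -0.04 without control replicate 4 (adjusted p = 0.873, edgeR). The *Rnf2* to *Ring1* ratio of FPKM was 2.17, 1.28, 1.27 and 1.17 in control replicates 1 to 4 and 1.68, 1.60, 1.91 and 1.5 in *Mettl3*-CKO replicates 1 to 4. The log2 ratio differed by 0.23 (0.51 ± 0.41 in controls and 0.735 ± 0.15 in *Mettl3*-CKO retinas, SD, n = 4 each), within the spread between libraries (two-sided exact permutation test, p = 0.371, adjusted p = 0.371). Without control replicate 1 the difference was 0.43, with all *Mettl3*-CKO libraries above the 3 remaining controls (exact permutation test, p = 0.0286, not adjusted and the smallest that these libraries allow).

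*Bmi1*, the PCGF subunit known for silencing the *Cdkn2a* locus in neural progenitors, was at 187, 150, 138 and 150 CPM in controls and at 138, 142, 142 and 149 CPM in *Mettl3*-CKO libraries. Control replicate 1 stood above the other 7 libraries, which lay between 138 and 150 CPM. The log2 fold change was -0.13 with an interval from -0.34 to 0.08 (adjusted p = 0.446, edgeR), and without control replicate 1 it was -0.03 (adjusted p = 0.786). *Pcgf2* encodes the closest paralog of BMI1, and was at 45.8, 74.6, 85.7 and 75.2 CPM in controls and at 83.8, 98.8, 76.0 and 77.2 CPM in *Mettl3*-CKO libraries (log2 fold change 0.26, SE 0.16, adjusted p = 0.366, edgeR). The *Bmi1* to *Pcgf2* ratio of FPKM was 3.61, 1.78, 1.43 and 1.77 in controls and 1.46, 1.28, 1.66 and 1.71 in *Mettl3*-CKO libraries, a log2 difference of -0.41 (exact permutation test, p = 0.171, adjusted p = 0.371). Without control replicate 1 it was -0.125, and without control replicate 3 it was -0.57 (exact permutation test, p = 0.0286, not adjusted).

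**Figure D4:**
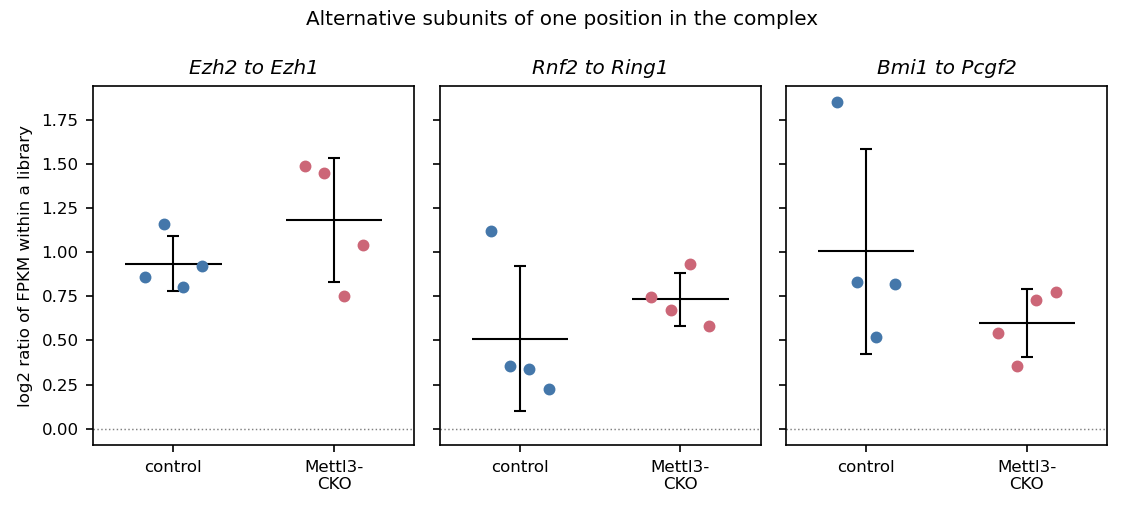
Log2 ratio of FPKM within each library for 3 pairs of alternative subunits in control and *Mettl3*-CKO retinas. Points are libraries, replicates 1 to 4 from left to right, with the mean and SD, and the dotted line marks equal FPKM by the deposited gene lengths. Control replicate 1 is the highest control in the *Rnf2* to *Ring1* ratio (1.12) and the *Bmi1* to *Pcgf2* ratio (1.85), and the groups overlap in all 3 panels.

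The other genes of the Polycomb system were read from lists of 39 further genes, of which 38 were found and tested. Of these, 2 were called higher and 1 lower, and the median log2 fold change was -0.02, beside the 10.5% of all tested genes that were called. None of the 22 other PRC1 genes passed in edgeR, where 3 had an unadjusted p under 0.05, while DESeq2 called 2 of the 22 and limma voom 3. The *Phc* genes, which encode the subunits that polymerise the complex, were called by none of these tools. *Lcorl*, one product of which (PALI2) binds PRC2, was at 317, 277, 269 and 305 CPM in controls and at 566, 368, 483 and 525 CPM in *Mettl3*-CKO libraries. Every *Mettl3*-CKO library was above every control, the log2 fold change was 0.73 (SE 0.12, adjusted p = 0.00323, edgeR), and the call held in all 14 alternative fits. Its deposited counts do not separate transcripts, and 5.01% of its exon bases overlap *Ncapg* on the other strand.

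*Phf1*, the third PRC2 gene of the family of *Mtf2* and *Phf19*, was at 37.7, 41.8, 42.2 and 40.9 CPM in controls and at 30.0, 33.9, 33.0 and 34.8 CPM in *Mettl3*-CKO libraries. All *Mettl3*-CKO values were lower, at -0.30 on the log2 scale (SE 0.09, adjusted p = 0.0399, edgeR). The call was lost with no filter on low counts (adjusted p = 0.112) and in 7 of the 8 leave-outs, all but that of control replicate 1, with values between -0.34 and -0.26. In GENCODE vM21, whose coordinates for *Phf1* differ from the deposited ones, 39.3% of its exon bases overlap *Cuta* on the other strand, so that its counts are uncertain. *Asxl3*, a partner of the H2A deubiquitinase BAP1 that opposes PRC1, was at 29.5, 42.0, 54.4 and 51.4 CPM in controls and at 62.5, 63.1, 64.3 and 64.2 CPM in *Mettl3*-CKO libraries. All *Mettl3*-CKO values were higher and nearly equal, at 0.52 on the log2 scale (SE 0.15, adjusted p = 0.046, edgeR). Without control replicate 1, the lowest control, the log2 fold change of *Asxl3* was smaller, at 0.367, and still called (adjusted p = 0.0147, edgeR). The call was lost with DESeq2's size factors (adjusted p = 0.0501) and with library totals alone (0.0543), without control replicate 2 (adjusted p = 0.127) and without *Mettl3*-CKO replicate 1 (0.129), 2 (0.0904), 3 (0.106) or 4 (0.0917). The H3K27 demethylase genes *Kdm6a* and *Kdm6b* did not pass, at log2 fold changes of -0.19 and -0.08.

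Of genes that Polycomb complexes are known to silence, the *Hox* genes were close to absent in both groups. Of the 39 *Hox* genes, 30 had no count in any library and none passed the filter on low counts, and their summed level was at most 0.482 CPM in a control and 0.44 CPM in a *Mettl3*-CKO library. Of 18 other developmental regulators known as Polycomb targets in embryonic stem cells, 5 passed the filter and edgeR and DESeq2 called none in either direction, with 2 at an unadjusted p under 0.05, *Cdkn2b* and *Olig2* in edgeR. *Tbx3*, a T-box transcription factor gene, was at 70.3 ± 13.1 CPM in controls and 70.7 ± 15 CPM in *Mettl3*-CKO retinas (SD, n = 4 each, adjusted p = 0.982, edgeR). *Cdkn2a*, the classic target of BMI1, was at 0.986 ± 0.461 CPM in controls and 1.18 ± 0.457 CPM in *Mettl3*-CKO retinas (SD, n = 4 each, adjusted p = 0.749, edgeR). *Olig2*, which marks a subset of progenitors, was at 24 ± 4.14 and 30.4 ± 3.8 CPM (log2 difference 0.34, adjusted p = 0.14, edgeR). *Cdkn2b*, next to *Cdkn2a*, was at 0.957 ± 0.287 and 0.481 ± 0.186 CPM (log2 difference -0.97, adjusted p = 0.139, edgeR), and limma voom called it lower.

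The likeness of 2 genes across the 8 libraries was measured as the root mean square difference of their log2 CPM, each centred on its own mean. Among the 45 pairs of subunits it was smallest for *Ezh1* and *Jarid2* (0.0918), *Mtf2* and *Ring1* (0.0959) and *Ezh1* and *Eed* (0.0976), and largest for *Phf19* and *Rnf2* (0.435). This measure is small for genes that vary little. Of 14316 genes with a mean log2 CPM of at least 1, those closest to *Ezh2* were *Ctdp1* (0.0791), *Rcor1* (0.0945), *Foxo3* (0.0969), *B230334C09Rik* (0.0983) and *Popdc3* (0.107), where the median over all was 0.305. None of the 5 passed the test between groups, with log2 fold changes between -0.04 and 0.11.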

How the data were processed

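The deposited table covers 8 bulk RNA-seq libraries of mouse retina. According to the study's methods, the authors used the NEBNext Ultra RNA kit and paired-end sequencing, removed low-quality reads, aligned the rest to GRCm38 (Hisat2) and obtained gene counts from featureCounts. The annotation release and the strand setting are not given in the sources used here, so genes overlapping another gene are uncertain. The deposited values are raw counts. Gene lengths were also taken from the deposited table.

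Genes were kept by edgeR's filterByExpr (17998 of 54532), scaled by TMM and tested in R 4.3.3 with edgeR 4.0.16 (glmQLFit, glmQLFTest), with Benjamini-Hochberg adjustment over all genes tested and a threshold of 0.05. Standard errors are the absolute log2 fold change divided by the square root of F. Levels in FPKM use TMM-scaled totals, and log2 CPM a prior count of 2. Ratios within a library were computed with 0.5 counts added. DESeq2 1.42.0 and limma 3.58.1 were run as alternatives. No replicate pair agreed within sampling noise (chi-square per gene of at least 5.54).

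The subunits and lists were chosen with earlier results of these data known. Genes named are the 10 subunits, the called genes of the Polycomb lists, genes used in a ratio, and the 5 genes closest to *Ezh2*. *Kdm6a*, *Kdm6b*, *Cdkn2a*, *Cdkn2b*, *Olig2*, *Tbx3* and the *Phc* genes were added after their values had been seen. Single values of some listed genes are not reported here. Further marker lists were scored, and their counts stand in the closing section. Sequences are from RefSeq (GRCm38.p6).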

Additional observations from a re-analysis of the deposited data

Results flagged for a closer look

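Dixon's test was applied to the most distant library of each group, for the 10 subunits and the 3 ratios. Of these 26 sets of 4 libraries 1 held a value beyond the 95% limit, where chance gives about 1.3. It was the *Rnf2* to *Ring1* log2 ratio of control replicate 1, at 1.12 against 0.22 to 0.36 in the other controls.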

How the results depend on the processing

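The 10 subunits gave 0 calls higher and 1 lower, and DESeq2 and limma voom with sample quality weights each gave 2 lower. The other Polycomb genes gave 2 higher and 1 lower. These were 3 higher and 2 lower with DESeq2, and 2 higher and 4 lower with voom. With no filter on low counts they were 3 higher and 0 lower. With DESeq2's size factors or with library totals only they were 1 higher and 1 lower. Over all genes, 1168 were higher and 729 lower, and voom gave 2142 and 1568. Why these counts differ was not tested.

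Leaving out each library in turn gave 0 to 1 subunits higher and 0 to 1 lower, 1 to 2 of the other Polycomb genes higher and 0 to 3 lower, and 509 to 1882 of all genes higher and 185 to 1289 lower. The most calls over all genes came without control replicate 1 and the fewest without *Mettl3*-CKO replicate 1. The difference in log2 ratio ran from 0.14 to 0.39 for *Ezh2* to *Ezh1*, from 0.13 to 0.43 for *Rnf2* to *Ring1* and from -0.57 to -0.125 for *Bmi1* to *Pcgf2*.

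The log2 fold changes near 0 changed sign. *Ezh2* was -0.0772 with voom, -0.00335 without control replicate 3, -0.0321 without *Mettl3*-CKO replicate 1 and -0.0725 without *Mettl3*-CKO replicate 2, and reached 0.168 without *Mettl3*-CKO replicate 3. *Suz12* was -0.00859 with voom and -0.0282 without *Mettl3*-CKO replicate 2, and 0.109 at its highest, without *Mettl3*-CKO replicate 4. *Mtf2* was 0.00262 with library totals only, 0.00189 without control replicate 3, 0.0257 without control replicate 4, 0.013 without *Mettl3*-CKO replicate 1, 0.0181 without *Mettl3*-CKO replicate 3 and -0.0356 at its lowest, without control replicate 1. No sign changed for the other 7 subunits.

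Both groups carry replicate numbers 1 to 4. The deviations of same-numbered libraries from their group means correlated across genes at 0.138, 0.406, -0.0784 and 0.443, and 2 of the 4 *Mettl3*-CKO libraries correlated best with their own number, so the numbers were not taken as pairing. With the replicate number as a block, 1198 genes were higher and 660 lower, *Jarid2* stayed called (adjusted p = 0.0252, edgeR) and no call of a subunit changed. Permuting within same-numbered pairs gave exact p-values of 0.25, 0.5 and 0.375 for the 3 ratios, in the order above. *Phf19* had the fewest counts of the 10 subunits, at 57 to 118 per library, and was 0.0273 with voom.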

Other observations

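The markers of the cell types that a retina sample can hold were counted in the same fit, where 4.05% of all tested genes were called lower and 6.49% higher. Of 8 Müller glial genes, 7 were tested, 1 was called higher and 2 lower. Of 8 cone genes, 7 were tested and 1 was called lower. Of the 7 bipolar genes 4 were tested and 1 was called lower, and of the 7 amacrine genes 1 was called lower. Of the 7 ganglion cell genes and the 4 horizontal cell genes 1 each was called higher.

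Of cells other than retinal neurons and Müller glia, 6 of 8 vascular genes were called lower, none of 6 microglial genes was called by edgeR or DESeq2 (1 at an unadjusted p under 0.05) and 4 were called higher by limma voom, 2 of 3 tested erythrocyte genes and 2 of 4 astrocyte genes were called lower, and so were 2 of 5 tested genes of the retinal pigment epithelium. Each of the 6 called vascular genes was highest in control replicate 1. Of the 9 lens genes 5 were tested and 3 were called lower. Their summed level was between 5.98 and 2260 CPM in controls and between 5.68 and 15.2 CPM in *Mettl3*-CKO libraries, so that the groups overlapped. The high value was that of control replicate 4, in which each of the 3 called genes was highest by far. The part of these lists in the values of the Polycomb subunits was not tested.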
